A study of Homo sapiens with 9 samples.

Results

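The Fos genes FOS, FOSB, FOSL1 and FOSL2, the Jun genes JUN, JUNB and JUND, and EGR1 were followed in U251 cells, an established human glioblastoma line. These 8 genes were taken by name from the 20848 genes of the deposited count tables and from the lists of MSI1 iCLIP sites. All 8 were present, and all 8 passed the filter on low counts as part of the 13856 genes tested. The study asked how knockdown of Musashi1 (MSI1), a neural RNA-binding protein, changes expression and splicing, and how those changes relate to where the protein binds RNA. RNA-seq covered 3 libraries of MSI1 knockdown cells, labelled Msi1 KD, and 3 libraries of control cells, labelled wild type. iCLIP, which maps the nucleotides at which a protein is cross-linked to RNA, was done with a monoclonal antibody against MSI1 in 3 samples of the wild-type cells, and no control iCLIP sample was analysed here. How MSI1 was depleted, and what the control cells received, is not given in the sources used here. No label says that replicates came from separate cultures, so each p-value measures the spread between these libraries, which may be technical. In bulk RNA a lower share of cells with a transcript and less of it per cell cannot be told apart.

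AP-1 is a dimeric transcription factor built from a Jun protein paired with a Fos protein or with another Jun protein. Fos proteins do not form stable dimers with each other, whereas Jun proteins do. FOS, FOSB, JUNB and EGR1 are classic immediate early genes: growth factor signals relayed by MAP kinases switch them on within minutes through serum response factor (SRF) and its partners, and their mRNAs are short-lived. FOSL1 and FOSL2, which encode Fra-1 and Fra-2, are induced later, stay high while MAP kinase signalling lasts, and lack the strong activation domains of FOS and FOSB. JUN, also an immediate early gene, encodes the most potent activator of the Jun proteins. JUNB and JUND are weaker, and EGR1 is a zinc finger factor that binds GC-rich DNA. In glioblastoma, FOSL1 and other AP-1 members are linked to the mesenchymal state.

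Promoter and 3′ UTR sequences of the members are shown first, because they carry the elements by which these genes are known to be switched on and their mRNAs cleared. RefSeq promoters, 250 bases before and 50 bases from the gene start on GRCh38.p14, were matched by symbol for FOS, FOSB, FOSL2, JUN, JUNB, JUND and EGR1, 7 of the 8 genes. The promoters of FOS, FOSL2 and EGR1 stand here because FOSL2 and EGR1 moved in opposite directions and FOS is the founding member of its family. Capitals mark TATAA on either strand in FOS, TGANTCA in FOSL2 and the CArG box, the element bound by SRF, in EGR1.
FOS, chr14:75278578-75278877, plus strand: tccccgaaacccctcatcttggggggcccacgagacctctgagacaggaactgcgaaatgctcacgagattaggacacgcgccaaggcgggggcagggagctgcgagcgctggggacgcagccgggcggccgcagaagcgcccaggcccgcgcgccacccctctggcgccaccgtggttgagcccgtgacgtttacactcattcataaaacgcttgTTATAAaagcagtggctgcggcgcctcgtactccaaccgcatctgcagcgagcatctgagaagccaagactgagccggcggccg
FOSL2, chr2:28392608-28392907, plus strand: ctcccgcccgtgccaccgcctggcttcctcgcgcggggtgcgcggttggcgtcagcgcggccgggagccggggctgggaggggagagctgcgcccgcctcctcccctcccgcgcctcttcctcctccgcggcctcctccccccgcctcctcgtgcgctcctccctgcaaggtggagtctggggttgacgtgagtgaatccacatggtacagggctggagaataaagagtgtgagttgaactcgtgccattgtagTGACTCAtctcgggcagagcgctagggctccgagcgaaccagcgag
EGR1, chr5:138465229-138465528, plus strand: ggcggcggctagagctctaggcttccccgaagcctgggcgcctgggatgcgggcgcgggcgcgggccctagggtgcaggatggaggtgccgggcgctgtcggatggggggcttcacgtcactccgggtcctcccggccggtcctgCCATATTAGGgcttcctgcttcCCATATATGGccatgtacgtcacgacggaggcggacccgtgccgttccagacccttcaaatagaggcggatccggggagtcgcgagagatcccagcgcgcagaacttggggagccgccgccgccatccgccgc

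Both strands were searched, and positions are counted from 0 at the start base. The EGR1 window held 2 CArG boxes, at -105 to -96 and at -83 to -74, and a CArG box was present in 1.29% of the 35116 promoters of the table. The FOSL2 window held TGACTCA, the classic AP-1 word, at 4 to 10, and TGANTCA was present in 7.71% of promoters. JUND held TGACGTCA, the cyclic AMP response element, at -200 to -193, a word found in 1.85% of promoters. TATAA was present in FOS, FOSB, JUNB and JUND, 4 of 7 windows, against 20.4% of all promoters. The EGR words GCGTGGGCG and GCGGGGGCG were in 0 of 7 windows, against 0.795% and 5.07% of promoters. The JUN window held none of the 6 words searched. These are matches of letters within one window and say nothing of binding in U251 cells.

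The nonamer TTATTTATT, the core of AU-rich elements that destabilise mRNAs, was in the 3′ UTR of FOS and of FOSL2, against 9.91% of 11556 genes with a 3′ UTR in GENCODE release 29. In the 30-base windows around it, capitals mark ATTTA and TTATTTATT, which overlap each other.
FOS: tattgtgtttttaATTTATTTATTaagatg
FOSL2: ttgacATTTAttttaTTATTTATTttaaat
FOS had 6.20 ATTTA and 7.44 GTAG words per kb of 3′ UTR, against medians over these genes of 1.79 and 2.34 per kb. GTAG is a word that Musashi proteins bind. Its density was 3.11 per kb in JUN, 2.43 per kb in EGR1, 2.39 per kb in FOSL1, 2.26 per kb in FOSL2 and 0.923 per kb in FOSB. JUNB and JUND held none, and JUND also held no TAG, a word present in 96.9% of the genes. FOS was thus the member with the highest density of GTAG, TAG and ATTTA words.

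The depletion of MSI1 itself was checked first. MSI1 transcript stood at 3.15, 5.11 and 2.26 CPM (read counts scaled to library size with TMM factors) in knockdown libraries 1, 2 and 3, against 16.0, 17.7 and 7.59 CPM in control libraries 1, 2 and 3, and the groups did not overlap. The log2 fold change was -1.97 ± 0.42 (SE). Its adjusted p was 0.0699 in edgeR's quasi-likelihood test, and 0.00279 once replicate number entered the fit as a block. Libraries held 32919299 to 47277016 gene counts. Control replicate 3 had the fewest counts and stood apart from the other 5: transcripts in the highest decile of GC content lay at a median log2 deviation of -1.28 from their mean over libraries, against -0.24 to 0.58 in the others, and the first exon held a median of 0.543% of a gene's exon counts, against 1.15% to 1.71%. Its part in the results was not tested. Values without it or with a GC term are given below where they change the call of a member or of one of the 3 leading genes of a list. Of the glial markers, VIM, NES and CD44 were abundant and GFAP reached at least 18.6 CPM in each library, while OLIG2 was at 0 and AQP4 at or below 0.101 CPM. SOX2 was at 84.9 to 94.9 CPM in knockdown and 137 to 167 CPM in control libraries. It was called lower without the block (log2 fold change -0.76 ± 0.13, adjusted p = 0.0432, edgeR), and over the libraries left out its adjusted p ran from 0.0169 to 0.253. With the block SOX2 stayed lower, and FABP7, SLC1A3 and, named after its values were seen, SOX9 were higher.

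Marker lists of other cell types gave the following levels. Of 5 fibroblast markers 2 passed the filter on low counts, COL1A1 and PDGFRB, and both were higher in the knockdown with the block and did not overlap between groups. COL1A1 ranged from 91.3 to 175 CPM in knockdown and from 25.5 to 61.0 CPM in control libraries, while COL3A1, DCN and LUM were at or below 0.235 CPM in each library. The summed fibroblast list stood at 98.3 to 183 CPM in knockdown and 28.0 to 66.1 CPM in control libraries. Of 5 endothelial markers KDR was higher with the block, at 21.1 to 24.7 CPM in knockdown and 12.9 to 14.3 CPM in control libraries, and the list summed to 21.9 to 25.6 CPM in knockdown and 13.5 to 14.7 CPM in control libraries, with PECAM1 at or below 0.0525 CPM. Of 4 neuronal markers in the tables SNAP25 was higher with the block, at 3.30 to 4.56 CPM in knockdown and 1.11 to 2.61 CPM in control libraries, the list summed to 25.8 to 31.2 CPM in knockdown and 20.6 to 30.5 CPM in control libraries, and STMN2 was at 0. Of 5 epithelial markers 0 were called: KRT8 ranged from 208 to 316 CPM in knockdown and from 123 to 265 CPM in control libraries, the list summed to 372 to 505 CPM in knockdown and 299 to 482 CPM in control libraries, and EPCAM and CDH1 were at or below 0.342 CPM. Of 6 leukocyte markers 0 were called, the list summed to 0.578 to 0.892 CPM in knockdown and 0.311 to 0.862 CPM in control libraries, and CD3E and TYROBP were at 0. The part of these differences in the members' values was not tested.

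In U251 cells the AP-1 transcripts were mainly those of FOSL1, FOSL2, JUN and JUND, and FOS and FOSB were nearly silent. Per exonic length (RPKM, CPM per kb of deposited exons), FOSL1 averaged 53.2 ± 10.7 in knockdown and 60.0 ± 24.0 in control libraries, and JUN averaged 36.9 ± 9.13 and 33.4 ± 14.1 (SD, n = 3 each, here and below). FOSL2 averaged 28.7 ± 4.79 RPKM in knockdown and 17.9 ± 6.61 RPKM in control libraries. JUND averaged 14.99 ± 1.17 and 11.5 ± 4.65 RPKM in knockdown and control libraries. The order FOSL1, JUN, FOSL2, JUND held in all 6 libraries, although the group ranges of neighbours in it overlapped, except for FOSL2 and JUND in the knockdown.

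The other 4 genes lay below these in all 6 libraries. EGR1 averaged 1.94 ± 0.32 RPKM in knockdown and 2.48 ± 0.48 RPKM in control libraries, and JUNB averaged 2.02 ± 1.05 and 1.49 ± 1.11 RPKM. These 2 genes changed places: JUNB was above EGR1 in knockdown libraries 1 and 2, and EGR1 was above JUNB in knockdown library 3 and in all 3 control libraries. FOS averaged 0.309 ± 0.145 RPKM in knockdown and 0.545 ± 0.097 RPKM in control libraries, and FOSB 0.253 ± 0.064 and 0.237 ± 0.079 RPKM. FOS rested on 13 to 59 reads and FOSB on 18 to 47 reads in a library, so counting error alone is wide for both. Among all genes of the tables, the mean level over the 6 libraries placed FOSL1 at the 94.1st percentile, JUN at the 89.9th, EGR1 at the 51.1st and FOSB at the 37.6th. RNA levels do not say how much protein was made.

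**Figure D1:**
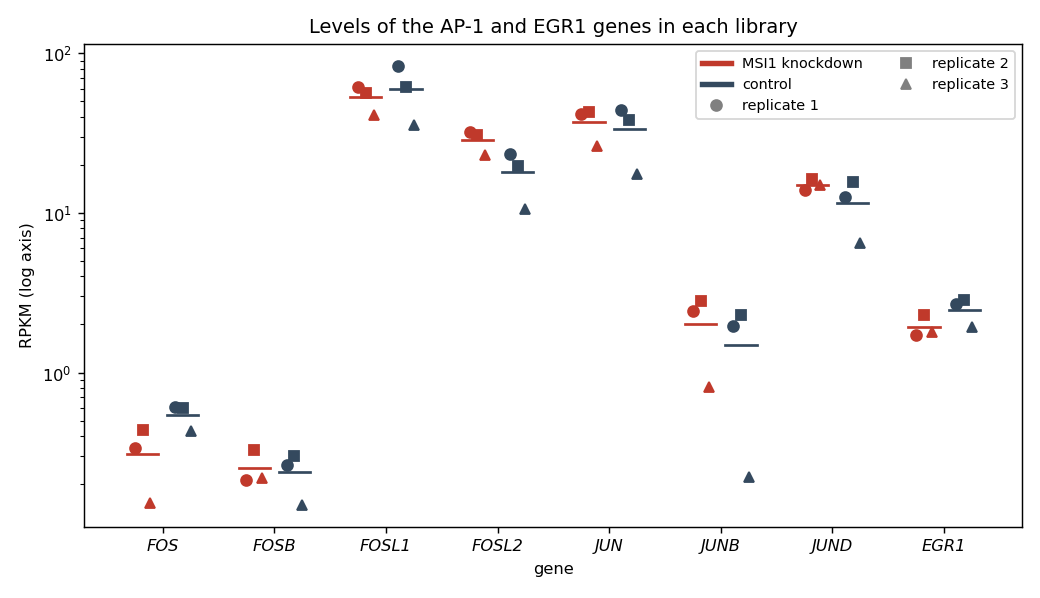
RPKM (log axis) of the 8 genes, with MSI1 knockdown libraries in red left of control libraries in blue; symbols are replicates and lines group means. FOSL1, JUN, FOSL2 and JUND lie above 6 RPKM in all libraries and FOS and FOSB below 0.7 RPKM, and control replicate 3 is the lowest control for each gene.

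FOSL2 was the member with the clearest shift after MSI1 knockdown, and it was higher. It had 127, 124 and 92.5 CPM in knockdown libraries 1, 2 and 3, against 93.4, 79.1 and 42.3 CPM in control libraries 1, 2 and 3. Within each replicate number the knockdown library was higher, and the groups overlapped only where knockdown 3 fell just below control 1. The log2 fold change was 0.68 ± 0.29 (SE), which did not pass the threshold of 0.05 without the block (adjusted p = 0.330, edgeR). With the replicate number as a block, FOSL2 rose by 0.74 ± 0.14 (adjusted p = 0.0204, edgeR). Without control replicate 3 the value was 0.47 (adjusted p = 0.130, unblocked edgeR), and with a GC term for each library it was 0.71 ± 0.17 (adjusted p = 0.0194, edgeR). That last adjusted p became 0.0687 without knockdown replicate 1 and 0.0639 without knockdown replicate 2. FOSL2 encodes Fra-2, a Fos protein that pairs with Jun proteins and is known from mice for roles in bone and in fibrosis.

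FOSL1, the most abundant Fos transcript, did not share that shift. It had 103, 94.4 and 68.7 CPM in knockdown libraries, against 139, 102 and 59.0 CPM in control libraries, lower in the knockdown for numbers 1 and 2 and higher for number 3. Its log2 fold change was -0.17 ± 0.31 (adjusted p = 0.874, edgeR), and -0.11 with the block (adjusted p = 0.589, edgeR). With the block and the GC term together it was -0.29 ± 0.05 (adjusted p = 0.00237, edgeR). Without control replicate 1 the unblocked value turned to 0.14, and without knockdown replicate 3 to 0.04. FOSL1 encodes Fra-1, which in epithelial and glial tumours is tied to migration and invasion.

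FOS was low throughout and lower in the knockdown of each replicate number. It stood at 0.728, 0.944 and 0.327 CPM in knockdown libraries 1, 2 and 3, against 1.30, 1.29 and 0.934 CPM in control libraries 1, 2 and 3. Knockdown 2 lay above control 3, so the groups overlapped by 1 library on each side. The log2 fold change was -0.82 ± 0.41, with adjusted p = 0.416 without and 0.103 with the block (edgeR), and its range over the libraries left out in turn was -1.15 to -0.44. FOSB, with 0.799, 1.23 and 0.830 CPM in knockdown and 0.995, 1.13 and 0.560 CPM in control libraries, showed a fitted log2 difference of 0.08 ± 0.36 (adjusted p = 0.956, edgeR), whose sign turned without knockdown replicate 2 and without control replicate 3.

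The shares of FOSL2, FOSL1 and FOS in the Fos family separated the libraries by group, which the level of no single member did, and that of FOSB did not. Of the summed RPKM of the 4 Fos genes, FOSL2 made up 33.8%, 35.1% and 35.8% in knockdown libraries 1, 2 and 3, against 21.8%, 24.2% and 22.8% in control libraries 1, 2 and 3. FOSL1 made up 65.6%, 64.1% and 63.6% in knockdown libraries and 77.4%, 74.7% and 76.0% in control libraries. Neither share overlapped between groups, and control replicate 3 lay between the other 2 controls in both. FOS made up 0.234% to 0.496% in knockdown and 0.562% to 0.931% in control libraries, also without overlap, and FOSB 0.224% to 0.370% in knockdown and 0.245% to 0.366% in control libraries, with overlap. The mean difference, knockdown minus control, was 11.99 percentage points for FOSL2 and -11.6 for FOSL1, and leaving out each library in turn gave 11.4 to 12.6 and -12.3 to -10.9. FOSL1 and FOSL2 made up nearly all of the sum in each library, so their shares mirror each other and are not separate results. The shares were formed after the levels were known and are given without a test. Across all tested genes, 3163 of 13856 (22.8%) had groups that did not overlap in CPM, and the 8 members were not among them. That figure is for levels of single genes and is not a measure for shares, which cancel any change common to the family. How often shares within other families separate the groups was not computed. The summed level of the family was 82.5 ± 15.6 RPKM in knockdown and 78.7 ± 30.6 RPKM in control libraries.

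**Figure D2:**
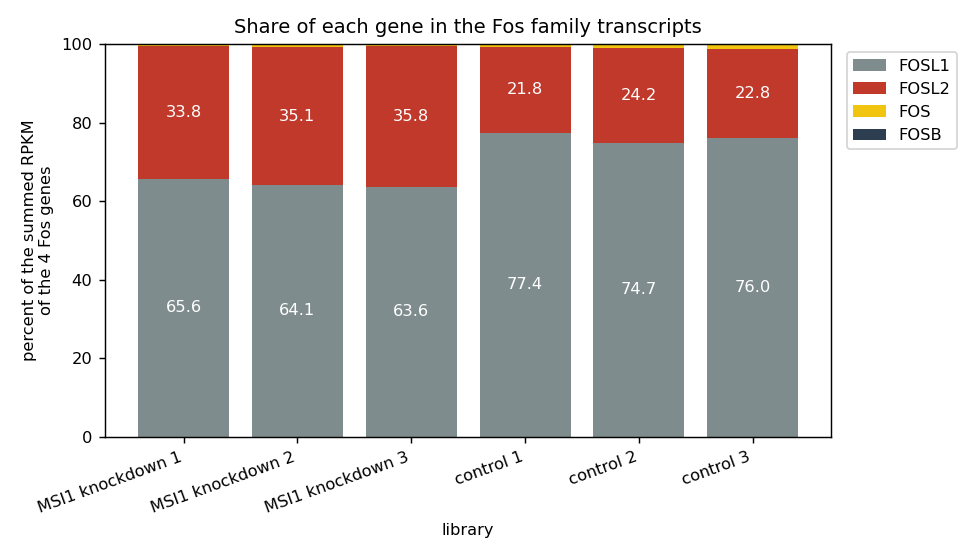
Percent of the summed RPKM of the 4 Fos genes taken by each gene, by library, with MSI1 knockdown on the left and control on the right. FOSL2 takes 33.8% to 35.8% in the knockdown and 21.8% to 24.2% in the control, FOSL1 takes the bulk of the rest, and FOS and FOSB are thin bands at the top.

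The Jun genes, the obligate partners of the Fos proteins, did not pass the test in any of the 4 fits run (without a block, with it, with the GC term and with both). JUN had 138, 142 and 87.7 CPM in knockdown libraries, against 148, 127 and 58.1 CPM in control libraries, and its log2 fold change of 0.15 ± 0.35 (adjusted p = 0.907, edgeR) became -0.10 without control replicate 3. JUND had 25.9, 30.3 and 27.9 CPM in knockdown libraries and 23.4, 29.1 and 12.04 CPM in control libraries. Its log2 fold change was 0.38 ± 0.31 (adjusted p = 0.654, edgeR), 0.15 without control replicate 3 and -0.12 with the GC term, a change of sign. JUNB had 4.44, 5.06 and 1.48 CPM in knockdown libraries and 3.56, 4.17 and 0.405 CPM in control libraries, a log2 fold change of 0.42 ± 0.76 (adjusted p = 0.873, edgeR) that was -0.02 without control replicate 3. Both libraries numbered 3 were low in JUNB, and JUNB in control 3 rested on 13 reads.

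JUND and JUNB are among the members with the highest GC content, 69.7% and 64.9% of their longest coding transcript, both in the highest decile of genes, against 52.6% in FOS and 53.3% in FOSL2. Control replicate 3 was poorest in that decile, and both genes were lowest there; the part of GC content in their values was not tested beyond the GC term. JUN made up 67.9% ± 4.75 of the summed RPKM of the Jun genes in knockdown and 72.0% ± 3.67 in control libraries, JUND 28.5% ± 6.08 and 25.2% ± 3.49, and JUNB 3.56% ± 1.41 and 2.78% ± 1.66. The ratio of summed Jun to summed Fos RPKM was 0.654 ± 0.043 in knockdown and 0.583 ± 0.088 in control libraries, with overlapping ranges.

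EGR1 was lower in the knockdown in each replicate number, by a small margin. It stood at 5.38, 7.24 and 5.63 CPM in knockdown libraries 1, 2 and 3, against 8.38, 8.87 and 6.07 CPM in control libraries 1, 2 and 3. Control replicate 3 lay below knockdown 2, and all other controls lay above all knockdown libraries. The log2 fold change was -0.35 ± 0.23, with adjusted p = 0.551 without and 0.190 with the block (edgeR). With the block and the GC term together it was -0.39 ± 0.11 (adjusted p = 0.0205, edgeR).

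Of the 8 members, 0 passed the threshold without the block, where 1.67% of the 13856 genes were called, and DESeq2 also called 0, beside 5.76% of genes. At an unadjusted p under 0.05, 0 of the 8 passed, beside 15.5% of all genes. With the block, FOSL2 alone of the 8 was called, beside 17.3% of all genes, a share at which 1 of 8 does not set the members apart. With the GC term, FOSL2 alone was called beside 21.4% of genes, and with both terms FOSL2, FOSL1 and EGR1 were called beside 41.0% of genes. Their median log2 fold change without the block was 0.11, against -0.04 over all tested genes.

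**Figure D3:**
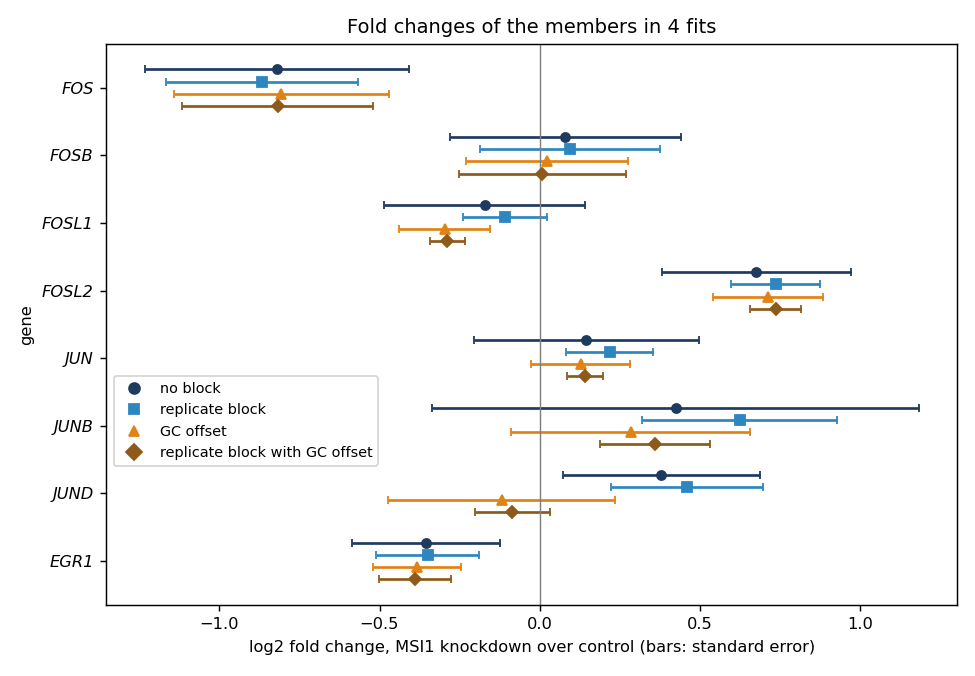
Log2 fold change of each member, MSI1 knockdown over control, with its standard error, in the fits without a block, with the replicate block, with a GC term and with both. FOSL2 lies between 0.68 and 0.74 and EGR1 between -0.39 and -0.35 in the 4 fits, whereas JUND changes sign with the GC term.

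Genes with the most similar profile over the 6 libraries were looked up for FOS, JUN and EGR1 among genes with a mean log2 CPM of at least 2. For JUN they were POLD2, LSM4 and PPP1R9B, at a root mean square difference of 0.030, 0.040 and 0.043 log2 units from the centred profile of JUN, whose own root mean square deviation was 0.49. For EGR1 they were STK36, RAD54L2 and LOC642852, at differences of 0.059 to 0.074, and for FOS UBOX5, TNFRSF21 and NUAK2, at 0.268 to 0.278. JUN was lowest in control replicate 3, at 58.1 CPM, against 148 and 127 CPM in controls 1 and 2. The part of that library in the close profiles of JUN was not tested. No gene with such a close profile was found for FOS as for JUN and EGR1. FOS itself rested on few reads and lay below the level of the genes searched, so this search cannot tell a lack of similar genes from counting error in FOS.

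No difference in exon use was called for FOSL1, FOSL2 and EGR1, the members that could be tested. FOSL1, FOSL2 and EGR1 had 10 exons with enough reads to be tested, of which 0 were called by edgeR's exon-level test and 0 had an unadjusted p under 0.05. Over all genes 0 of 123109 exons (0%) were called and 263 had an unadjusted p under 0.05. The test thus called nothing in any gene, and the lack of a call in the members says little. JUN, JUNB and JUND have a single exon and could not be tested. FOS and FOSB had too few exons with enough reads and were not tested either. The last exon of FOSL2 held 84.0%, 82.1% and 85.6% of its exon counts in knockdown libraries and 81.7%, 82.0% and 93.2% in control libraries, and the first exon held 5.17%, 6.13% and 4.22% against 5.48%, 5.80% and 1.38%. In control replicate 3, the last of the control values, the first exon of EGR1 held 1.02% of its counts, against 5.73% and 5.16% in the other controls, and the first exon of FOS held 0 reads in both libraries numbered 3.

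MSI1 iCLIP sites were dense on FOSL2 and JUN and absent from FOS and FOSB. The 3 samples gave 1746795, 145718 and 208722 single-nucleotide sites, so replicate 1 decides most counts. On the sense strand FOSL2 had 355, 10 and 11 sites in replicates 1, 2 and 3, FOSL1 had 73, 2 and 4, and JUN had 61, 5 and 11. The median tested gene had 22, 2 and 3 sites. EGR1 had 4 sites, JUND 6 and JUNB 1, all in replicate 1. Without replicate 1, 42 of the 535 distinct positions of the members were left: 21 in FOSL2, 15 in JUN and 6 in FOSL1. FOSL1, FOSL2 and JUN thus had sites in each of the 3 samples, 3 of 8 members, against 62.8% of all tested genes.

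FOS and FOSB had 0 sense sites, against 7.27% of all tested genes without one. Of the 1556 tested genes within 2-fold of the control RPKM of FOS, 20.7% had no site, and of the 1306 within 2-fold of FOSB, 27.03%. The site lists also gave 34 sites under the name of FOSB on the opposite strand, and 7 each for JUNB and JUND. No other gene interval of the tables overlapped a member, and since the strand setting of the read counts is not given, antisense reads in the low counts of FOSB and JUNB cannot be told apart from sense reads.

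Read against RNA level, FOSL2 and JUN had many sites per kb of exon and FOSL1 did not. FOSL2 had 98 exonic positions, 24.6 per kb, and JUN had 73, 21.97 per kb, whereas FOSL1 had 11, 6.59 per kb, at a control level of 60.0 RPKM, the highest of the 8. In replicates 2 and 3, FOSL2 had 4 and 4 exonic sites, JUN 5 and 11, and FOSL1 0 and 0. Among tested genes within 2-fold of the same control RPKM, the exonic density of FOSL2 was at the 97.4th percentile, that of JUN at the 92.4th and that of FOSL1 at the 47.9th. JUN has no intron, so all of its positions count as exonic. By the number of all positions, introns included, FOSL2 was at the 89.5th percentile of such genes, and JUN and FOSL1 were both at the 54.4th. JUND, with 3.21 exonic positions per kb, stood at the 57.4th percentile and EGR1, with 1.28 per kb, at the 59.2nd. Introns of FOSL2 carried 274 positions, 15.4 per kb, and those of FOSL1 68 positions, 10.2 per kb. Over the members with introns and sites, 113 of 455 positions (24.8%, 95% Clopper-Pearson interval 20.9% to 29.1%, counting error only) were exonic.

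Sites on JUN gathered near the end of its transcript, chr1:59019051-59022373 on the minus strand of hg18. Of 73 positions, 50 (68.5%) lay in the last 1000 nucleotides, which are 30.1% of the single exon. Replicates 1, 2 and 3 placed 40 of 61, 5 of 5 and 8 of 11 sites there. No position of any member was in all 3 samples at the same nucleotide, against 6.05% of tested genes with at least 1 such position. Within 5 nucleotides, 7 positions recurred in all 3 samples, all of them in JUN and all in that last stretch. They fell at 597 to 601, at 752 to 753 and at 924 to 925 nucleotides before the transcript end. Neither the share of genes with such a recurrence nor the share of sites near the end was computed over all tested genes. Replicate 1 alone placed 40 sites in that stretch of JUN, and how many near matches such a density gives was not tested. The authors' p-value was under 0.05 for 5 of the JUN sites, 11 of the FOSL2 sites and 4 of the FOSL1 sites, with a minimum of 0.0167 in JUN. In replicate 1 that was 3.80% of the member sites, against 4.40% of all sites in the list, so few sites passed that limit in the members as in the whole list.

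In FOSL2, chr2:28469283-28491020 on the plus strand of hg18, the last exon showed no such gathering. Of 79 positions there, 26 (32.9%) lay in the last 1000 nucleotides, which are 36.8% of the deposited exon. The deposited exons of FOSL2 sum to 3991 nucleotides, against 6708 in its longest coding transcript in GENCODE release 29, so sites and reads in a longer 3′ end, where the AU-rich window shown above lies, were not counted. In FOSL1 7 of 11 exonic positions lay in the last exon, all in replicate 1. MSI1 binding was mapped in wild-type cells only, and a site says nothing of whether the transcript changed. JUN, with sites recurring within 5 nucleotides, was not called in any fit, and FOSL2, with the most sites, was called higher with the block.

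**Figure D4:**
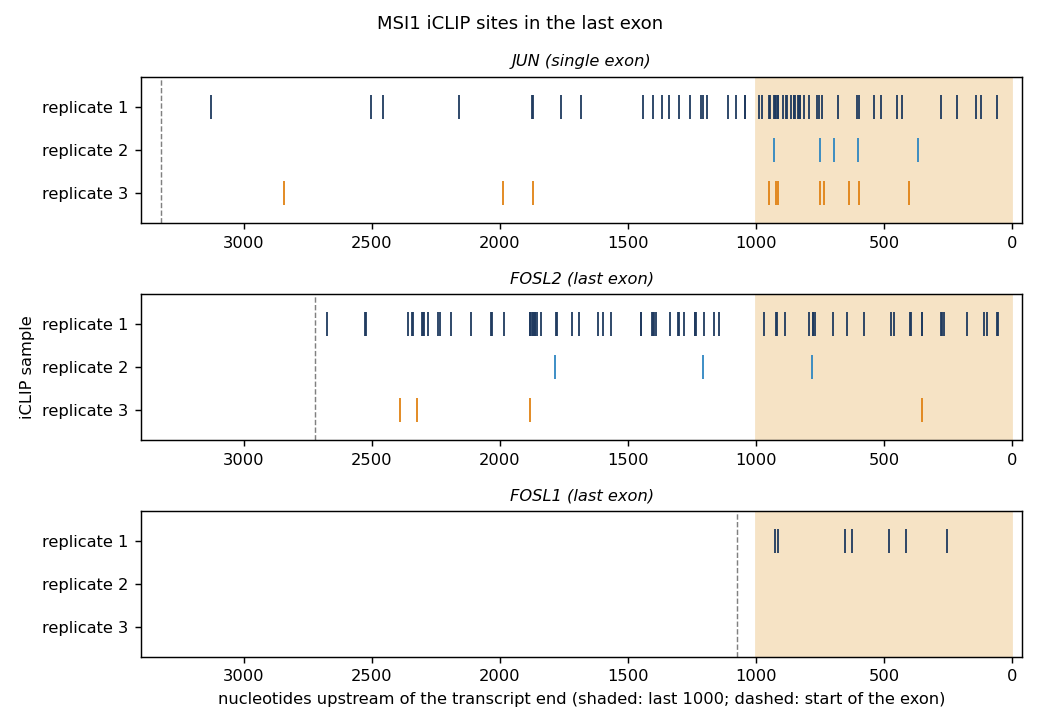
MSI1 iCLIP sites on the sense strand in the single exon of JUN and in the last exons of FOSL2 and FOSL1, by distance upstream of the transcript end in nucleotides, in a row for each iCLIP sample. In JUN 50 of 73 positions lie in the shaded last 1000 nucleotides, in FOSL2 26 of 79, and replicate 1 holds most sites.

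Among 17 feedback genes of MAP kinase signalling, which ERK activity is known to switch on as it does FOS and EGR1, 1 rose without the block, 5 rose with it, and 0 fell in either fit. ETV1, an ETS factor, rose to 65.6, 87.7 and 88.0 CPM in knockdown libraries, against 21.3, 26.6 and 30.9 CPM in control libraries (log2 fold change 1.62 ± 0.20, adjusted p = 0.0158, edgeR). Leaving out control replicate 3 kept that call, and leaving out any other library gave an adjusted p of 0.0789 to 0.105. The 5 genes called with the block, where 7.04% of all genes were higher, were ETV1, DUSP4 (0.95 ± 0.16, adjusted p = 0.0137) and ETV5 (0.64 ± 0.10, adjusted p = 0.0134), and, named after their values were seen, ETV4 and SPRY4. Without control replicate 3 the other 4 were also called in the unblocked fit, among them DUSP4 (adjusted p = 0.0202) and ETV5 (0.0438, edgeR), and with the GC term these stood at 0.00232 and 0.00751. The median log2 fold change of the 17 was 0.26, and 6 of them, all higher, had groups that did not overlap, against 8.73% of all genes. DUSP4 encodes a phosphatase that inactivates ERK and JNK in the nucleus. EGR1 and FOS were not called in either of these fits, and FOS rested on 13 to 59 reads in a library. ERK activity was not measured, and its part in any of these values was not tested.

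The cascade above them was mixed. Of 30 genes, 0 were called without the block, and with it 4 were higher and 4 lower. Over all genes 1.67% were called without the block, and with it 7.04% were higher and 10.3% lower. EGFR, the receptor often amplified in glioblastoma, stood at 102 ± 3.94 CPM in knockdown and 151 ± 4.45 CPM in control libraries (log2 fold change -0.57 ± 0.12, adjusted p = 0.0661 without and 0.00673 with the block, edgeR). MAPKAPK2, the p38-activated kinase that stabilises AU-rich mRNAs, had a log2 fold change of -1.09 ± 0.23 (0.0696 and 0.00388), and MAP3K4, an activator of the p38 and JNK arms, -0.70 ± 0.13 (0.0523 and 0.00526). Without control replicate 3 the unblocked adjusted p was 0.000572 for MAPKAPK2, 0.0326 for MAP3K4 and 0.0508 for EGFR, and with the GC term it was 0.000176, 0.000638 and 0.00163 (edgeR). Named after their values were seen, the others called with the block were MAP2K6, MAPK10, NRAS and MAP3K1, which were higher, and MAP2K4, which was lower. In the SRF and CREB arm 0 of 14 were called without the block and 2 higher and 2 lower with it, beside the same shares of all genes. SRF, which binds the CArG boxes shown for EGR1, stood at 34.8, 34.7 and 23.9 CPM in knockdown libraries and 65.3, 58.4 and 30.2 CPM in control libraries. Its log2 fold change was -0.72 ± 0.31 (0.322 without and 0.0235 with the block, edgeR), that of its partner ELK4 0.55 ± 0.16 (0.149 and 0.0260) and that of MKL2, a coactivator of SRF, -0.36 ± 0.12 (0.214 and 0.0327). Without control replicate 3 the unblocked adjusted p was 0.00654 for SRF and 0.0480 for ELK4, and with the GC term it was 0.000993 and 0.0166 (edgeR), while MKL2 had no GC value. ELK3, a further ETS partner of SRF named after its values were seen, was the other gene higher with the block.

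Other immediate early genes split in both directions. Of 31 tested, HBEGF, an EGFR ligand, was higher and SGK1, a serum-induced kinase, lower without the block, beside 0.772% of all genes higher and 0.902% lower. HBEGF had 14.4, 11.99 and 17.8 CPM in knockdown libraries, against 5.13, 3.88 and 6.26 CPM in control libraries (log2 fold change 1.53 ± 0.25, adjusted p = 0.0373, edgeR). SGK1 had 45.6, 37.3 and 41.4 CPM in knockdown libraries, against 107, 89.2 and 95.5 CPM in control libraries (-1.23 ± 0.15, adjusted p = 0.0149, edgeR). Both calls held without control replicate 3, while leaving out any other library gave an adjusted p of 0.120 to 0.193 for HBEGF and of 0.0729 to 0.124 for SGK1. With the block 3 were higher and 8 lower, beside 7.04% and 10.3% of all genes, and KLF4, with a log2 fold change of -0.996 ± 0.241 without the block, was among the lower ones (adjusted p = 0.0125 with it and 0.0245 with the GC term, edgeR). RHOB and CTGF, named after their values were seen, were higher with the block beside HBEGF. The others lower with it, also named after their values were seen, were GADD45A, BTG1, BTG2, ATF3, TRIB1 and MCL1.

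Partners and regulators of the members held no call without the block, and with it most of those called were lower. Over all genes, too, more were lower than higher with the block, 10.3% against 7.04%, and 1.67% were called without it. Of 15 further bZIP factors that can pair with or compete with AP-1, 0 were called without the block, and with it 1 was higher and 4 lower. CREB5 was the higher one and ATF3 a lower one, both named after their values were seen, and the other lower ones were ATF7 (-0.63 ± 0.08, adjusted p = 0.00752), DDIT3 (-0.54 ± 0.13, adjusted p = 0.0416) and NFE2L2 (-0.57 ± 0.09, adjusted p = 0.0140). Groups did not overlap for 6 of the 15, against 22.8% of all genes. Of 5 EGR family and NAB genes, 0 were called without and 2 lower with the block: NAB1, a corepressor of EGR proteins (-0.70 ± 0.11, adjusted p = 0.0112), and EGR2 (-1.41 ± 0.36, adjusted p = 0.0487). EGR2 was low, at 0.385 ± 0.372 CPM in knockdown and 0.924 ± 0.493 CPM in control libraries, and its groups overlapped. Its adjusted p was 0.460 without the block, 0.208 with the GC term and 0.0161 with both terms (edgeR). EGR3 stood at 0.469 ± 0.123 CPM in knockdown and 0.318 ± 0.110 CPM in control libraries. Among 11 regulators of Fos and Jun proteins, 0 were called without the block and 3 were lower with it: FBXW7, whose ubiquitin ligase removes phosphorylated JUN (-0.74 ± 0.11, adjusted p = 0.0120), COPS5, a coactivator of JUN (-0.38 ± 0.09, adjusted p = 0.0435), and ITCH, another JUN ligase (-0.33 ± 0.08, adjusted p = 0.0462). Of 23 genes for turnover of AU-rich mRNAs, 0 were called without the block and 3 higher and 2 lower with it, with CELF1 (-0.51 ± 0.07, adjusted p = 0.00695) and PUM2 (0.67 ± 0.08, adjusted p = 0.00499) among them and, named after their values were seen, PAN2 lower and CNOT6 and ELAVL1 higher, while ELAVL2, at 0.460 ± 0.102 CPM in knockdown and 0.165 ± 0.067 CPM in control libraries, was not called. Groups did not overlap for 8 of these 23, against the same 22.8% of all genes. Without control replicate 3, ATF7 (adjusted p = 0.0292) and PUM2 (0.00817) were called in the unblocked fit (edgeR). With the GC term the adjusted p was 0.00133 for ATF7, 0.0146 for DDIT3, 0.0202 for NFE2L2, 0.000863 for NAB1, 0.00397 for FBXW7, 0.0337 for ITCH, 0.00578 for CELF1 and 0.000227 for PUM2 (edgeR).

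Genes known in the literature as AP-1 or EGR1 targets showed no common direction. Of 28 tested, HBEGF was higher and ODC1, the first enzyme of polyamine synthesis, lower without the block; ODC1 had 306 ± 31.5 CPM in knockdown and 550.5 ± 68.0 CPM in control libraries (log2 fold change -0.85 ± 0.15, adjusted p = 0.0420, edgeR). The ODC1 call held without control replicate 3, while leaving out any other library gave an adjusted p of 0.0968 to 0.221, and DESeq2 size factors gave 0.0629. With the block 5 were higher and 5 lower, beside 7.04% and 10.3% of all genes. Without it, 0.772% of all genes were higher and 0.902% lower. THBS1, a matrix glycoprotein, stood at 449 ± 88.1 CPM in knockdown and 1019 ± 282 CPM in control libraries (-1.18 ± 0.23, adjusted p = 0.0583 without and 0.00128 with the block, edgeR), and its unblocked adjusted p was 0.00179 without control replicate 3 and 0.00964 with the GC term. Named after their values were seen, SPP1, PLAUR, LIF and LOX were the others higher with the block, and HMOX1 and PLAU were lower. The median log2 fold change of the 28 was -0.10.

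**Figure D5:**
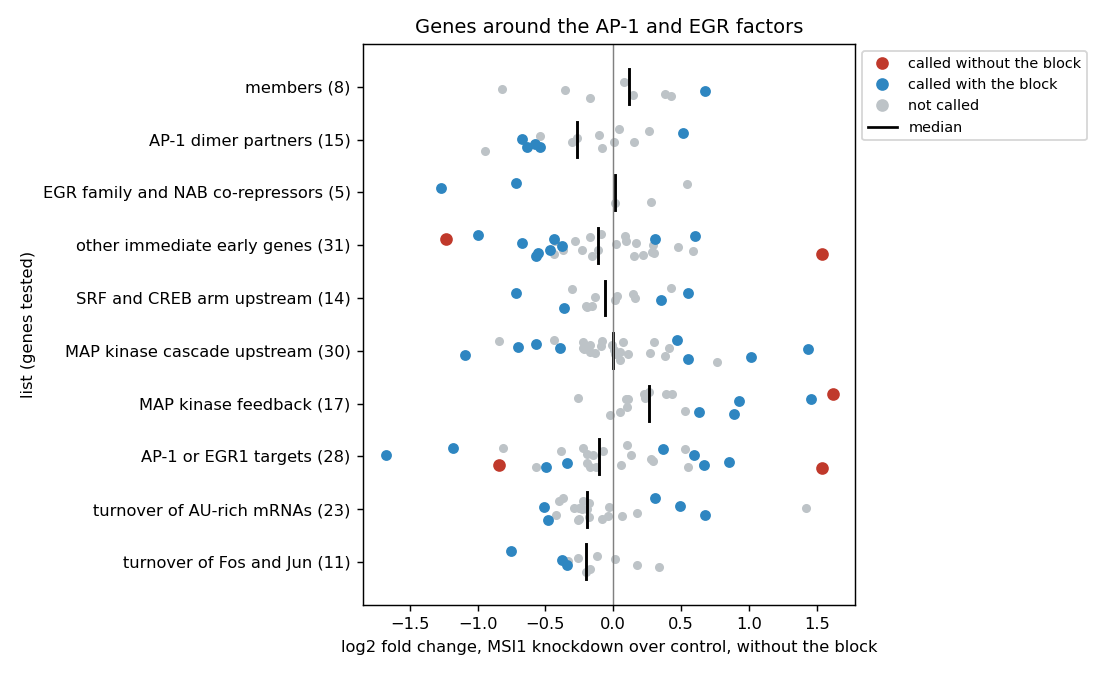
Log2 fold change, MSI1 knockdown over control, of the tested genes of each list, with medians as black lines. Genes called without the block are red and genes called with the block alone are blue. The called MAP kinase feedback genes, 5 with the block, all lie to the right of 0, as does FOSL2, the only member called.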

How the data were processed

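Gene and exon read counts were deposited by the authors as raw counts for 3 MSI1 knockdown and 3 control libraries, and 3 lists of cross-link sites were deposited for the iCLIP samples. Each site carries the authors' own p-value, used here only to restrict sites, since the lists reach values of 1. Coordinates are on hg18, per the submitters' processing notes. For the aligner, counter, strand setting and site caller, nothing is given in the sources used here. Protocol text in the labels covers iCLIP alone and has the replicates combined, while the files hold separate values for each title.

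For genes, edgeR 4.0.16 (R 4.3.3) was run with glmQLFit and glmQLFTest (TMM, filterByExpr, Benjamini-Hochberg over all 13856 genes, threshold 0.05), with the group alone as design. RPKM divides TMM-scaled CPM by the summed length of the deposited exons. Exons were tested with diffSpliceDGE. No label says that the numbers in the titles pair the libraries, so the replicate block is an alternative fit. Same-numbered libraries deviated together (Pearson's r across genes of 0.32, 0.73 and 0.75 for numbers 1, 2 and 3, each above 0.1). Control 1 went more with knockdown 2 (0.49) than with knockdown 1, and the other pairs gave -0.72 to -0.096. Deviations were taken from each group's own mean, so the values of a library with the 3 of the other group cannot all be positive. Whether the numbers mark true pairs was not tested further. Blocked values are given where they change a call. The GC term is an offset for each library from a lowess curve (span 0.3) on transcript GC content from GENCODE release 29, for the 11836 matched genes. It was added after control replicate 3 was seen to depend on GC content. DESeq2 1.42.0, its size factors, no filter and leaving out each library were further alternatives. Gene, exon and GC tests were tried on simulated data. Sense iCLIP sites were assigned by gene symbol and strand, and distinct positions pool the 3 samples.

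The members and lists were chosen with earlier results of these data known. Genes named are MSI1, the 8 members, the 3 genes of each list with the lowest unblocked adjusted p and any called without the block, and the 3 closest profiles for FOS, JUN and EGR1. Others called with the block were named after their values were seen, as marked beside them. One further gene of a list counts in its totals and is not reported here.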

Additional observations from a re-analysis of the deposited data

How the results depend on the processing

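The number of genes called was 232 in the fit without a block, 2398 with the replicate block, 798 with DESeq2, 2531 with the GC term and 4857 with the replicate block and the GC term. Leaving out 1 library gave 0 (without knockdown replicate 1) to 1028 (without control replicate 3), with 4 to 10 for the others, and the cause was not tested. Members called were 0 without the block, 1 with the replicate block, 1 with the GC term and 3 with both. The MSI1 log2 fold change was -1.97 with the replicate block, -1.92 with DESeq2, -2.09 with the GC term and -2.10 with both, past the threshold in all 4, and -2.35 to -1.69 over the libraries left out. FOSL2 passed at 0.74 with the replicate block, 0.71 with the GC term and 0.74 with both. FOSL1, at -0.29, and EGR1, at -0.39, passed with both terms, and FOSL1 also, at -0.43 (adjusted p = 0.0498, edgeR), with the GC term and without control replicate 2. JUND reversed to -0.12 with the GC term and -0.086 with both. The replicate block changed no other member's call.

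Over the libraries left out, FOSB ranged from -0.15 to 0.27, FOSL1 from -0.38 to 0.14, JUN from -0.10 to 0.41 and JUNB from -0.022 to 0.86, each crossing 0. With the GC term the ranges were -0.064 to 0.15 for FOSB, -0.021 to 0.28 for JUN and -0.41 to 0.36 for JUND. FOS, FOSL2 and EGR1 kept their direction under each alternative run. The 60 other named list and marker genes reversed under no alternative run. Of 48 named list genes not called in the fit without a block, 22 were called without control replicate 3, 37 with the GC term, 16 with DESeq2 and 0 without any other library. Dividing by the gene interval with its introns in place of exons lowered the mean RPKM to 0.129 for FOSB, 11.4 for FOSL1 and 4.28 for FOSL2.

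Exons called over all genes were 10 with the replicate block and 0 to 1 with a library left out. Limiting iCLIP sites to the authors' p under 0.05 left 20 of the 535 member positions, with 20% of those in intron-bearing members exonic. Leaving out a sample gave 42 to 520 positions and an exonic share of 24.6% to 29.6%. Recurring positions numbered 7 within 5 nucleotides and 8 with 2 of 3 samples. Few reads in FOS, FOSB and JUNB, and few sites in iCLIP replicates 2 and 3, limit what could be detected.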
